A study of Mus musculus with 22 samples.

Results

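Cholesterol synthesis and sterol handling were followed through 36 genes in splenic immature B cells. The genes were chosen by symbol from the textbook pathway, with earlier results of these data known. All 36 had a row in each of the 3 deposited tables and a mean of at least 10 there. The tables listed 21880, 26097 and 25676 genes for experiment 1, experiment 2 and culture. By role, 9 genes lead from acetyl-CoA to isoprenoids, 12 from squalene to cholesterol, 7 sense sterols, 4 move or store cholesterol, and 4 are the nuclear receptor Nr1h2 and genes of the LXR export response. A cross-cutting group of 20 genes is driven by SREBP2, and Abca1, Abcg1 and Mylip were set against it as LXR-driven genes. The LXR-driven genes are called export genes here, although Mylip encodes a ubiquitin ligase and not an exporter.

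All 22 libraries are total RNA of B220+CD93+ B cells from mouse spleen, and since the labels name no animals, each p-value reflects how far the libraries of a group lie apart, which may be technical. In experiment 1, Tcrd-GDL mice were untreated (3 libraries) or received DTx (3 libraries, here called depleted), given as 2 intraperitoneal injections of 15 ng per g 48 h apart, with cells taken at day 8. Experiment 2 repeated this with 5 untreated and 2 depleted Tcrd-GDL libraries and added 3 libraries of Tcrd-H2BeGFP mice given the same DTx, here called the toxin control. The culture table holds 3 libraries of such cells from untreated Tcrd-H2BeGFP animals cultured by themselves and 3 cultured together with gamma delta T cells. As background, Tcrd-GDL is known as a knock-in that gives gamma delta T cells a diphtheria toxin receptor, and Tcrd-H2BeGFP as a green reporter of the same cells. The toxin control therefore differs from the untreated mice in both strain and DTx, which cannot be told apart, and from the depleted mice in strain as well as depletion. Depleted mice differ from untreated ones in DTx as well as depletion, which cannot be told apart either. The sources used here give no ages and no time in culture.

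Cells hold cholesterol steady through a pair of opposed transcription programs. When membrane sterol is low, SCAP carries SREBP2 from the endoplasmic reticulum to be cut by the proteases encoded by Mbtps1 and Mbtps2, and the freed factor turns on synthesis genes; when sterol is ample, INSIG proteins hold SCAP back. Oxysterols and the sterol precursor desmosterol activate the LXR receptors, which turn on the exporters Abca1 and Abcg1 and Mylip, a ubiquitin ligase that marks lipoprotein receptors for breakdown. Lymphocytes are known to raise synthesis when they grow and divide.

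Experiment 1 had 9794413 to 20343954 recovered reads per library, experiment 2 had 22022330 to 36840455, and the cultured cells had 17505909 to 28729574. B cell markers summed to at least 91251 normalized counts in every library of experiment 1, against at most 150.02 for 8 T cell markers there, 1540 in experiment 2 and 767 in culture. Depleted replicate 1 of experiment 1 stood apart from the other depleted libraries: 28.7% of its reads fell on a single gene, Gm23935, against 16.1% to 20.4% elsewhere in the table, and 8 markers of dividing cells summed to 1081 against 318 and 511. Results of experiment 1 are therefore given with and without it. Of the gamma delta T cell markers, Cd163l1 was measured in experiment 1 and culture, at no more than 1.87 normalized counts in a library. Trdc, Trgc1 and Trgc2 had no row under those symbols in any of the tables, so the sorted cells do not show whether depletion worked. In such bulk samples, fewer cells of a type and less RNA per cell cannot be told apart.

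The sequence just upstream of these genes carries some of the elements that SREBP2 and LXR are known to use. RefSeq (GRCm38.p6) gave 250 bases before the start for 38 starts of 30 members, and both strands were searched for fixed letters; Abcg1, Fdft1, Fdps, Npc1, Sqle and Stard4 had no entry. CCAAT, the site of the SREBP partner NF-Y, was found before 15 of the 16 SREBP2-driven genes with an entry, and in 63.2% of the members' windows against 33.8% of all 32851 windows. GGGCGG, the GC box of the partner Sp1, was likewise found before 15 of those 16, and in 73.7% of the members' windows against 32.7% of all. The counts of genes have no background here, because the shares over all were taken per window and a gene can have several. The sterol regulatory element TCACNCCAC matched only Hmgcs1 (2.63% of the members' windows against 1.05% of all). The E-box CACGTG, which SREBP can also bind, lay in 15.8% against 6.02%, and the LXR direct repeat (GGTNA, 5 bases of any kind, GGTNA) matched Abca1 and Srebf1 (5.26% against 0.621%). The E-box reads the same on both strands, and no matches of different patterns overlapped in the members' windows. The 32851 windows were not limited to genes with a mean of at least 10 here, while all members had one, so the shares are not matched for expression. Matches are a description of letters and not of binding, and no match says only that the letters are not in the window.

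Windows of 5 genes are shown because they carry these elements before genes described here: Hmgcs1 with the sterol element, Sc5d with a CCAAT box beside its start, Mylip with 3 CCAAT boxes and no LXR repeat in this window, and Abca1 and Srebf1 with LXR repeats. Capitals mark CCAAT or its reverse ATTGG, the sterol element of Hmgcs1, and the LXR repeat, which reads on the opposite strand in both genes. Each is printed on the gene's strand and ends at the base before the start. They are chr13:119690101-119690350 (+) for Hmgcs1, chr9:42264301-42264550 (-) for Sc5d, chr13:45389492-45389741 (+) for Mylip, chr4:53159896-53160145 (-) for Abca1, and chr11:60210472-60210721 (-) for Srebf1, a start inside that gene.
Hmgcs1: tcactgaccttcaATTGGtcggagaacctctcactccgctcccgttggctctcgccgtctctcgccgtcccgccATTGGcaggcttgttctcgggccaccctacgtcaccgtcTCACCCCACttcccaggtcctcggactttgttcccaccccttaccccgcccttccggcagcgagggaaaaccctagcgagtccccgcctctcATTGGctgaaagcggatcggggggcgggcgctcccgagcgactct
Sc5d: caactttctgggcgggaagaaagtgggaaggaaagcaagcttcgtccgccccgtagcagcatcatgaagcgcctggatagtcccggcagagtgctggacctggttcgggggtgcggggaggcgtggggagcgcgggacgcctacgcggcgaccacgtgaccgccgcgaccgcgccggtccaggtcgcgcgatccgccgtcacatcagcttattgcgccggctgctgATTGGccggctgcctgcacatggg
Mylip: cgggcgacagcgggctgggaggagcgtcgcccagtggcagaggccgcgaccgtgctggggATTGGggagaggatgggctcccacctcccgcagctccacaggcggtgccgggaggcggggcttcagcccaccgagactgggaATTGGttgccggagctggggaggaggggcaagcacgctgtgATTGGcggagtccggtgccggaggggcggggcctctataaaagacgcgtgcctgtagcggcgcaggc
Abca1: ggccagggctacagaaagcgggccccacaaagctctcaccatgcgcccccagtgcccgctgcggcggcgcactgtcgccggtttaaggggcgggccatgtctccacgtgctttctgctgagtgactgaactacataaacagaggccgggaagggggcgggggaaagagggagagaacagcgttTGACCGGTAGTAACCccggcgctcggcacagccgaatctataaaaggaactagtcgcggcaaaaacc
Srebf1: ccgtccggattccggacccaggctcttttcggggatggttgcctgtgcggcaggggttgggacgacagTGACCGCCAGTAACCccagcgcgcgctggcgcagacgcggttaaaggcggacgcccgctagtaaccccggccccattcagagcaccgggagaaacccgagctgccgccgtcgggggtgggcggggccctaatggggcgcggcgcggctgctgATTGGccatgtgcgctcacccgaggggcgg

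In culture, which asks what gamma delta T cells change in immature B cells kept beside them, genes of sterol synthesis rose and export genes driven by LXR fell. Of the 36 genes, 7 rose and 2 fell at an adjusted p under 0.05 (limma on log2(value + 1)), where 1.1% of the 12386 genes tested rose, 1.06% fell and 2.16% changed in either direction. All 7 that rose belong to the 20 SREBP2-driven genes, 19 of which had a positive log2 difference; their median was 0.51, against -0.0050 over all genes tested, of which 49.2% were positive. Both that fell are among the 3 export genes, whose median was -0.77, so that the group medians lay 1.28 apart. In 17 genes (47.2%; 15 higher, 2 lower) the libraries with gamma delta T cells did not overlap those without, against 18.4% of all genes tested.

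Among the early steps, Idi1, which interconverts the isoprenoid building blocks, had 645, 568 and 506 normalized read counts alone and 1169, 1058 and 874 with gamma delta T cells. Every co-culture library lay above every library kept alone, and Idi1 rose 1.80-fold (log2 difference 0.85 ± 0.14, SE; adjusted p = 0.00776), the largest rise of the 36. Fdps, which joins those blocks into farnesyl diphosphate, went from 628, 495 and 512 to 925, 919.9 and 883, again without overlap (log2 difference 0.75 ± 0.13, adjusted p = 0.00819). Hmgcs1, which makes the HMG-CoA that enters the pathway, had 1526, 1646 and 1223 alone and 2424, 2239 and 1732 with gamma delta T cells. Its groups did not overlap either, but the spread within each was wide and it missed the threshold (0.54 ± 0.15, adjusted p = 0.104). The mevalonate kinase Mvk (0.47) and the decarboxylase Mvd (0.56) also had groups that did not overlap and missed it, at adjusted p = 0.106 and 0.0688. The other 4 early genes, Acly, Acat2, Pmvk and Ggps1, had log2 differences from 0.052 to 0.40 and overlapping groups.

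Of the 12 genes from squalene onward, 5 rose. Lss, which folds squalene epoxide into lanosterol, had even values, 403, 369 and 381 alone and 652, 636 and 643 with gamma delta T cells. The gap between the groups was far wider than the spread within them, and Lss had the smallest p of the 36 (644 ± 7.94 (SD, n = 3) against 384 ± 17.1 (SD, n = 3); log2 difference 0.74 ± 0.12, adjusted p = 0.00466). Sqle, the squalene epoxidase and a rate-limiting step, went from 740.3, 721 and 608 to 1245, 1096 and 1047 (log2 difference 0.71 ± 0.13, adjusted p = 0.0113). Fdft1, the squalene synthase that commits farnesyl diphosphate to sterols, went from 777, 779 and 735 to 1178, 1131 and 1058 (log2 difference 0.55 ± 0.11, adjusted p = 0.0223). Both genes were higher in each co-culture library than in any library kept alone. Msmo1, which removes methyl groups from lanosterol products, went from 1726, 1444 and 1715 to 2616, 2758 and 2220.3 (0.63 ± 0.13, adjusted p = 0.0223). Sc5d, the late sterol desaturase whose upstream window is printed above, went from 574, 540.0 and 493 to 861, 802 and 703 (0.55 ± 0.13, adjusted p = 0.0404). Neither overlapped between the groups, with co-culture replicate 3 the lowest of its group in both. Nsdhl, Cyp51, Hsd17b7 and Dhcr7 had groups that did not overlap, with log2 differences of 0.65, 0.48, 0.32 and 0.26 and adjusted p from 0.0877 to 0.417. Tm7sf2 and Lbr, which encode enzymes for the same reduction, and the isomerase Ebp overlapped and had 0.28, -0.096 and -0.088; Lbr is also a protein of the inner nuclear membrane.

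**Figure D1:**
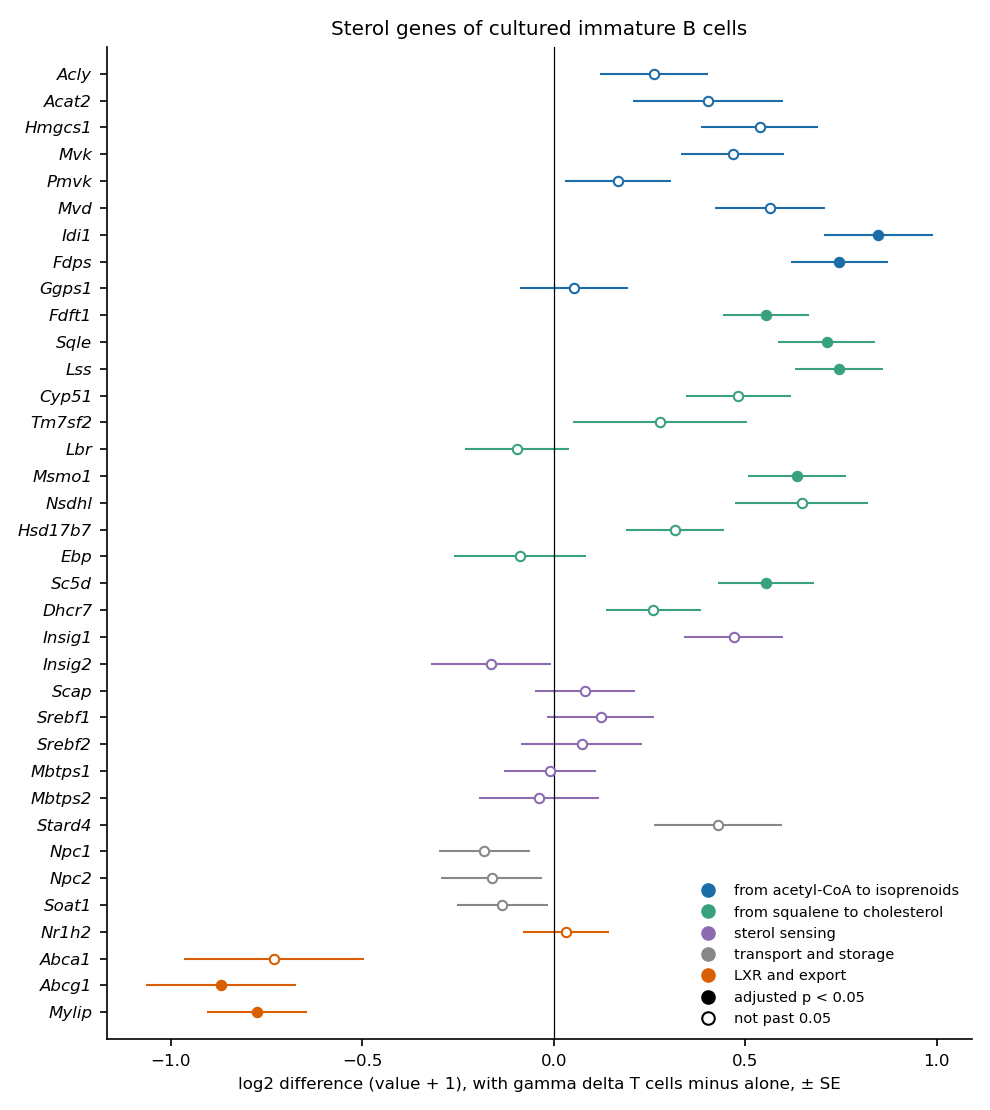
Log2 difference of log2(value + 1) with gamma delta T cells minus alone (x axis) for the 36 genes in pathway order (y axis), with bars of 1 SE and 3 libraries per group; filled points passed an adjusted p of 0.05. The 7 filled points right of 0 are synthesis genes, and the 2 left of 0 are Abcg1 (-0.87) and Mylip (-0.77).

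No gene of the sensing machinery itself passed the test. Insig1, an SREBP2 target that feeds back on SCAP, had 1651, 1506 and 1503 alone and 2273, 2402 and 1818 with gamma delta T cells. The groups did not overlap, and its log2 difference of 0.47 ± 0.13 had an adjusted p of 0.0934. Srebf2, which encodes SREBP2, had 2759, 3701 and 3472 alone and 3116, 3085 and 4291 with gamma delta T cells, overlapping ranges (0.073 ± 0.16, adjusted p = 0.903). Srebf1, which encodes the related factor of fatty acid synthesis, had 542, 550.0 and 551 and 541, 535 and 731. Co-culture replicate 3 was the highest library for both factors, and Srebf1 too overlapped (0.12 ± 0.14, adjusted p = 0.798). Scap, Mbtps1, Mbtps2 and Insig2 had log2 differences from -0.16 to 0.082, with overlapping groups. In transport and storage, the sterol carrier Stard4 had 0.43 (adjusted p = 0.283), and Npc1 and Npc2, which release lysosomal cholesterol, and Soat1, which esterifies it, had -0.18, -0.16 and -0.13 and did not pass.

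The export genes moved the other way. Mylip had 1043, 1119 and 988 alone and 714, 598 and 539 with gamma delta T cells, and fell 1.71-fold without overlap (log2 difference -0.77 ± 0.13, adjusted p = 0.00819). Abcg1, which passes cholesterol to high-density lipoprotein, had 94.4, 131 and 125 alone and 71.9, 55.5 and 62.3 with gamma delta T cells. It was the scarcest of the 36 genes per length in cells kept alone, its groups did not overlap, and it fell 1.83-fold (-0.87 ± 0.20, adjusted p = 0.0394). Abca1, which loads cholesterol onto apolipoproteins, had 325, 175 and 318 alone and 156, 127 and 198 with gamma delta T cells. Replicate 2 kept alone lay within the co-culture range, and Abca1 did not pass (-0.73 ± 0.24, adjusted p = 0.16). The receptor gene Nr1h2 had 0.031 ± 0.11 and an adjusted p of 0.946.

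**Figure D2:**
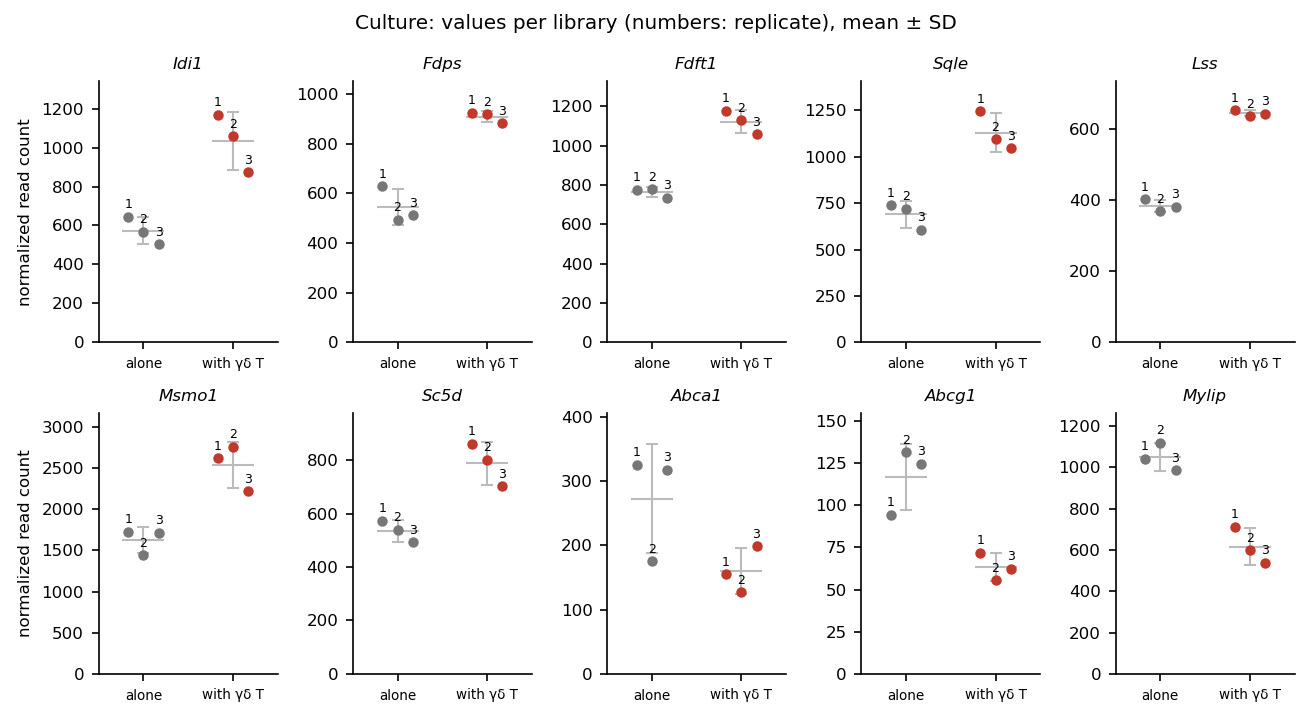
Normalized read counts (y axis, from 0) of the 9 genes that passed the test in culture and of Abca1, with 1 point per library numbered by replicate and bars at the mean ± SD (n = 3) for cells kept alone and with gamma delta T cells (x axis). Lss lies at 652, 636 and 643 with gamma delta T cells, all above the cells kept alone, and Abca1 is the panel whose groups overlap.

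Of 44 tested genes in lists around the 36, 4 passed in culture (9.09%, against 2.16% of all genes). These lists, like the 36 genes, were chosen with earlier results of these data known, so the share is not independent evidence. Of 3 tested genes among 4 other LXR targets and receptors, 2 fell: Apoe, an acceptor of exported cholesterol (2343 ± 384 against 5917 ± 530.2 normalized counts, log2 difference -1.35 ± 0.14, adjusted p = 0.000207), and Smpdl3a (358 ± 70.7 against 694 ± 0.781, -0.97 ± 0.15, adjusted p = 0.00406). The other tested gene of that list, Lpcat3, was higher in each co-culture library than in any kept alone. Its log2 difference of 0.20 did not pass. Of 10 tested genes of fatty acid synthesis and desaturation 1 rose, the synthase Fasn (0.70 ± 0.16, adjusted p = 0.0463). Of 3 tested genes of oxysterol synthesis and sensing 1 rose, the oxysterol receptor Gpr183 (1599.9 ± 138 against 538 ± 107, 1.59 ± 0.15, adjusted p = 9.10e-05). Hsd3b7 and Cyp27a1, the other tested genes of that list, went the other way, with log2 differences between -1.08 and -1.07. Neither passed, and neither exceeded 20.9 normalized counts in a library. None of 12 genes of prenylation and other isoprenoid products, or of 16 of sterol transfer, hydrolysis and turnover of the sensing proteins, passed in culture.

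The values in culture rest on 3 libraries a group. With 1 library left out, between 2 and 16 of the 36 genes passed: 4 without replicate 1 kept alone, 2 without replicate 2, 2 without replicate 3, 6 without co-culture replicate 1, 5 without replicate 2 and 16 without replicate 3. Of all genes tested, 0.831%, 0.945%, 0.889%, 1.55%, 1.34% and 5.49% passed in these fits, in the same order. Lss passed in all 6 of these fits, and all 9 genes kept their sign in each. With quantile scaling 6 of the 36 passed, without Msmo1, Sc5d and Abcg1, where 252 of all 12386 genes did. Abcg1 was also lost when genes of any mean above 0 were tested, where 289 of 22738 passed. Of the markers of other cells, 8 T cell genes summed to 476 to 552 alone and 544 to 767 with gamma delta T cells, 8 genes of dividing cells to 508 to 716 and 485 to 569, 8 measured macrophage genes to 93.8 to 153 and 52.5 to 125, and 6 red cell genes to 3.74 to 9.21 and 7.90 to 422. None of these genes that reached a mean of 10 passed the test, nor did any of 8 B cell genes, whose sum was 102751 to 116367 alone and 134136 to 138405 with gamma delta T cells. The part of other cells in these results was not tested.

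In experiment 1, which asks what changes in B cells after DTx and the removal of gamma delta T cells together, none of the 36 genes passed. Of the 11701 genes tested, 0% did (limma). Of the 36, 3 had an unadjusted p under 0.05 in limma, and 0 passed with edgeR and 0 with DESeq2. Of all 11701 genes, edgeR called 0 and DESeq2 31. The groups did not overlap in 5 genes (13.9%), against 15.2% of all genes. Insig1 had the smallest p, with 144, 134 and 178 in untreated and 242, 212 and 203 in depleted mice. The groups were separate, and the log2 difference was 0.53 ± 0.15 (adjusted p = 0.454). Mvd had 48.9, 42.4 and 43.2 in untreated and 33.6, 27.4 and 23.6 in depleted mice, each depleted library below each untreated one (-0.66 ± 0.24, adjusted p = 0.515). Nr1h2, Npc2 and Lbr, the other genes without overlap, differed by -0.19, -0.11 and 0.061.

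The export genes of experiment 1 differed among the depleted libraries. Abca1 had 1945, 1780.5 and 2007 in untreated mice, and 1468, 3367 and 2893 in depleted replicates 1, 2 and 3. Abcg1 had 941, 719 and 807 in untreated mice, and 870.2, 1281 and 1484 in the depleted ones. Mylip had 1781, 1745 and 1729 in untreated mice, and 1536, 2926 and 2734 in the depleted ones. In all 3 genes depleted replicates 2 and 3 were above every untreated library, and replicate 1 was within or below the untreated range. With all libraries the log2 differences were 0.35 ± 0.25, 0.53 ± 0.18 and 0.40 ± 0.21 (adjusted p = 0.694, 0.508 and 0.601).

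Hmgcs1 and Sqle were ordered the other way in the same libraries. Hmgcs1 had 290.4, 275 and 306 in untreated mice and 335, 217 and 208 in depleted replicates 1, 2 and 3. Sqle had 81.7, 60.6 and 73.7 in untreated and 99.4, 29.5 and 49.7 in depleted mice. For both, replicate 1 was the highest of the 6 libraries and replicates 2 and 3 were below all untreated ones (-0.23 ± 0.18 and -0.43 ± 0.37, adjusted p = 0.713 and 0.75). Fdps, Fdft1, Dhcr7 and Stard4 shared this order, and the remaining SREBP2-driven genes did not. Msmo1 had 159, 125 and 158 in untreated and 292, 126 and 198 in depleted mice, with replicate 3 above every untreated library. Idi1 had 44.1, 52.1 and 84.8 and 82.6, 42.1 and 49.7, with wide overlap (-0.056 ± 0.31, adjusted p = 0.965). Srebf2 had 1897, 1593 and 1809.6 in untreated and 1568, 1609 and 1631 in depleted mice, and Srebf1 had 458, 401 and 391.6 and 439, 417 and 562; both overlapped (-0.14 and 0.17). Over the 20 SREBP2-driven genes the median log2 difference was -0.11 with 4 positive, where 48.0% of all genes tested were positive. Over the 3 export genes the median was 0.40, and over all genes tested it was -0.011. Without depleted replicate 2 these medians were 0.068 and 0.23, the first turning positive, and without untreated replicate 3 they were -0.017 and 0.39.

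Without depleted replicate 1, 5 of the 36 genes passed, where 9.37% of all genes tested then did. Abca1 rose by a log2 difference of 0.71 (adjusted p = 5.82e-05), Abcg1 by 0.75 (0.000225) and Mylip by 0.69 (2.88e-05), while Hmgcs1 had -0.45 (0.027) and Sqle -0.88 (0.0381), both lower. The medians were then -0.32 for the SREBP2-driven and 0.71 for the export genes. The 2 depleted libraries left are also those with the fewest reads on markers of dividing cells, 318 and 511 against 911 to 965 in untreated mice, and the part of dividing cells was not tested. Leaving out any other library left 0 genes past the threshold.

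In experiment 2, depleted mice were again compared with untreated mice, which received no DTx, in libraries of greater depth. Again none of the 36 genes passed, where 0.299% of the 13364 genes tested did (limma). Of the 36, 3 had an unadjusted p under 0.05 in limma, and edgeR called 0, where it called 51 of all 13364 genes. Groups did not overlap in 5 of the 36 (13.9%), against 12.3% of all genes. Abca1 came nearest, with 2422, 2471, 2362, 2843 and 3096 in untreated replicates 4 to 8 and 3909.9 and 3433 in the depleted ones. Both depleted libraries exceeded all 5 untreated ones, with a log2 difference of 0.48 ± 0.13 and an adjusted p of 0.15; DESeq2 on recovered reads gave 0.48 and 0.0427. Sc5d had 532, 527, 484, 451 and 433 in untreated and 602 and 585 in depleted mice, also without overlap (0.29 ± 0.12, adjusted p = 0.432). Tm7sf2 had 96.2, 66.6, 69.8, 88.2 and 90.4 in untreated and 53.7 and 52.5 in depleted mice, the depleted ones lower (-0.61 ± 0.26, adjusted p = 0.449). Dhcr7, the last step to cholesterol in 1 branch, and Mbtps1 also did not overlap and differed by -0.11 and -0.15.

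The other export genes did not follow Abca1 in experiment 2. Abcg1 had 1761, 1599, 1426, 1499 and 1823 in untreated mice, and 1128 and 1742 in depleted replicates 4 and 5. Mylip had 4399.6, 4108, 3592, 3592 and 3911 in untreated and 3791 and 4102 in depleted mice. Depleted replicate 4 was below all untreated libraries for Abcg1 and replicate 5 within them, and for Mylip both were within, so the log2 differences were -0.20 ± 0.15 and 0.013 ± 0.097 (adjusted p = 0.711 and 0.984). Over the 20 SREBP2-driven genes the median was 0.015, with 11 positive and 9 negative, where 49.5% of all genes tested were positive. Leaving out 1 library moved it between -0.11 (without depleted replicate 5) and 0.085 (without untreated replicate 4).

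Hmgcs1 had 1031, 879.9, 993, 866 and 883 in untreated and 806 and 1060.1 in depleted mice, Idi1 had 235, 282, 360.4, 223 and 170.5 and 319 and 222, and Sqle had 336, 261, 319, 249.8 and 179 and 229 and 307. All 3 overlapped, with log2 differences of -0.0059, 0.11 and 0.012. Insig1 had 872, 686, 811, 685 and 579 in untreated and 947 and 736 in depleted mice (0.21 ± 0.15, adjusted p = 0.68). Srebf2 (3509, 3106, 2726, 3058 and 3367 against 3191 and 3059) and Srebf1 (865, 833, 741, 725 and 845 against 849.7 and 857) differed by -0.0080 and 0.093, less than the spread among untreated mice.

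**Figure D3:**
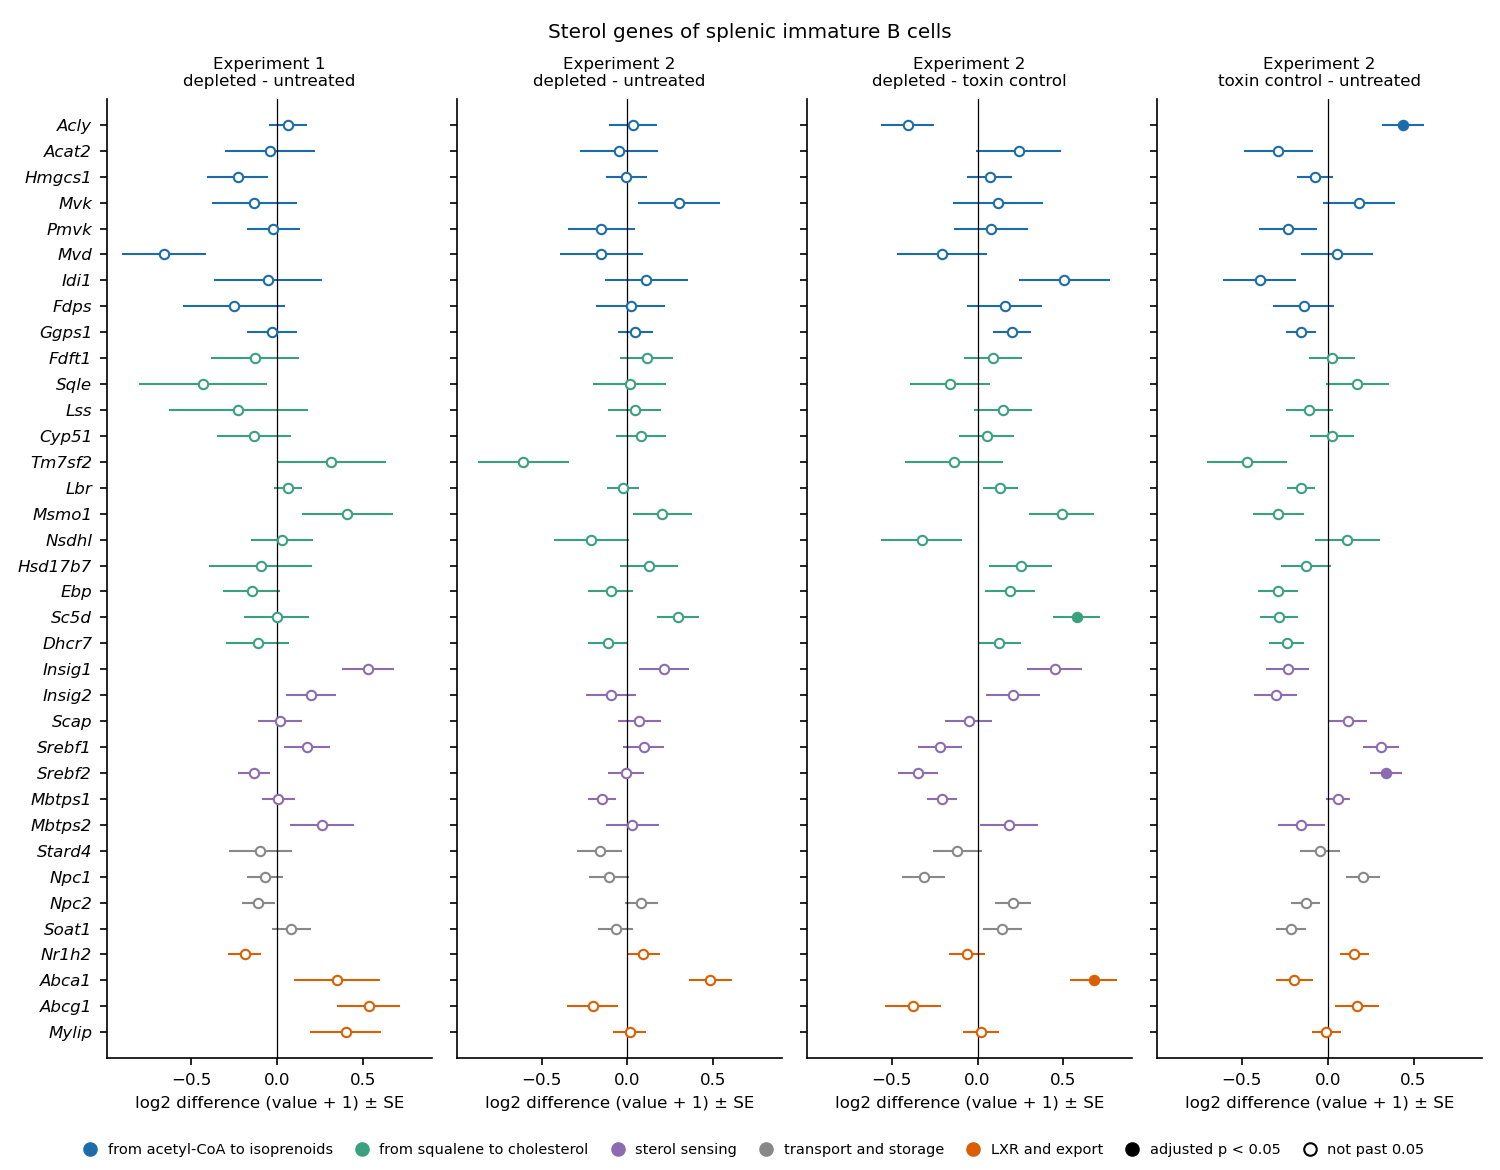
Log2 difference of log2(value + 1) (x axes) for the 36 genes in pathway order (y axis) in the 4 comparisons of splenic cells, with bars of 1 SE; filled points passed an adjusted p of 0.05. No point is filled where depleted mice are set against untreated ones, Sc5d and Abca1 are filled against the toxin control, and Acly and Srebf2 for the toxin control against untreated mice; the 3 panels of experiment 2 share libraries.

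Set against the toxin control, which received the same DTx, 2 of the 36 genes were higher in depleted mice and none lower (limma), where 9.07% of all genes tested changed. Groups did not overlap in 14 genes (38.9%), against 42.1% of all genes, so neither share exceeds the background. Abca1 had 1967, 2668 and 2302 in the toxin control, each below the depleted libraries, and differed by 0.67 ± 0.14 (1.60-fold; 3672 ± 337 (SD, n = 2) against 2312 ± 351 (SD, n = 3); adjusted p = 0.0107). Sc5d had 359, 425 and 412 in the toxin control, also below both depleted libraries (0.58 ± 0.14, 1.49-fold, adjusted p = 0.0193). Next came Srebf2, with 3751, 4460.2 and 3742 in the toxin control, all above the depleted libraries (-0.35 ± 0.12, adjusted p = 0.0719; DESeq2 gave 0.0445). Fitted without the untreated libraries, Abca1 alone of the 36 passed, where 442 of all 13451 genes tested did. Without depleted replicate 4 neither Abca1 nor Sc5d passed, and without replicate 5, 6 genes did, where 20.3% of all genes then changed, adding Insig1 (0.63) as higher and Acly (-0.69), Abcg1 (-0.69) and Npc1 (-0.48) as lower.

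Among the other genes against the toxin control, Insig1 had 588, 651 and 598 there, below both depleted libraries (0.45 ± 0.16, adjusted p = 0.0854). Abcg1 had 1550.4, 2042 and 1896 and overlapped (-0.37 ± 0.16, adjusted p = 0.153), and Mylip had 3710.4, 3926 and 4025 (0.022 ± 0.11, adjusted p = 0.916). Of the 3 export genes, Abca1 alone passed here; the other two had differences near or below 0. Hmgcs1 had 942, 853 and 849.9, Idi1 231, 185 and 153 and Sqle 339, 294 and 261 in the toxin control, all overlapping the depleted libraries (0.070, 0.51 and -0.16). Srebf1 had 894, 1175 and 932, above both depleted libraries, and did not pass (-0.22 ± 0.13, adjusted p = 0.296). Over the 20 SREBP2-driven genes the median was 0.12 with 15 positive, where 49.8% of all genes tested were positive. This median was 0.24 without depleted replicate 4 and 0.00013 without replicate 5.

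The toxin control was also compared with untreated mice, a difference of strain and DTx together. Srebf2 and Acly were higher: 2 of the 36 genes rose and none fell, where 15.7% of all genes tested changed. Groups did not overlap in 8 genes (22.2%), against 23.4% of all genes, so here too the shares do not exceed the background. Srebf2 was above every untreated library in each toxin control library (3985 ± 412 (SD, n = 3) against 3153 ± 302 (SD, n = 5); log2 difference 0.34 ± 0.093, adjusted p = 0.0238). Acly, which makes cytosolic acetyl-CoA from citrate, had 3149, 2438, 2289.9, 2539 and 2756 in untreated mice and 3326, 3933 and 3419 in the toxin control, without overlap (0.44 ± 0.12, adjusted p = 0.0251). Srebf1 was next (0.31 ± 0.10, adjusted p = 0.0528), with every toxin control library above the untreated ones.

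None of the 20 genes that SREBP2 is known to drive passed the test in the toxin control. Their median log2 difference from untreated mice was -0.13, with 6 of 20 positive, where 50.1% of all genes tested were positive. Hmgcs1, Idi1, Sqle and Insig1 differed by -0.076, -0.40, 0.17 and -0.23, and all overlapped. The export genes Abca1, Abcg1 and Mylip differed by -0.19, 0.17 and -0.0087, also with overlap. Both calls were lost without untreated replicate 5, 6 or 7 or toxin control replicate 2 or 3. Without untreated replicate 8, 7 genes passed, where 22.5% of all genes then changed: Srebf2, Acly and Srebf1 as higher and Pmvk, Msmo1, Ebp and Sc5d as lower.

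Cell markers moved in the same comparisons. Of all genes tested, 15.7% changed between the toxin control and untreated mice, and 9.07% between depleted mice and the toxin control. In the toxin control 6 of 8 T cell markers were higher than in untreated mice (summed level 897 to 1540 against 252 to 1180, and 345 to 533 in depleted mice), and 2 of 8 markers of dividing cells were higher (1240 to 2095 against 698 to 1384, and 320 to 692 in depleted mice). Against the toxin control, 6 of the 8 dividing-cell and 3 of the 8 T cell markers were lower in depleted mice. Cd93 and Ptprc, the gene of B220, with which the cells were sorted, were higher in the toxin control than in untreated mice (0.81 and 0.41). Against the toxin control both genes were lower in depleted mice (-0.86 and -0.50), 2 of 8 B cell markers. Of 8 tested macrophage genes, Lyz2 was lower and Spic higher there, and the other 6 did not pass. Depleted replicate 4, without which Abca1 and Sc5d did not pass, had 4362 normalized counts of red cell markers, against 281 to 2423 in the other libraries of experiment 2, and 419 of dendritic cell markers, against 63.6 to 273. The part of these cells and of the sort in the values of Srebf2, Acly, Abca1 and Sc5d was not tested.

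**Figure D4:**
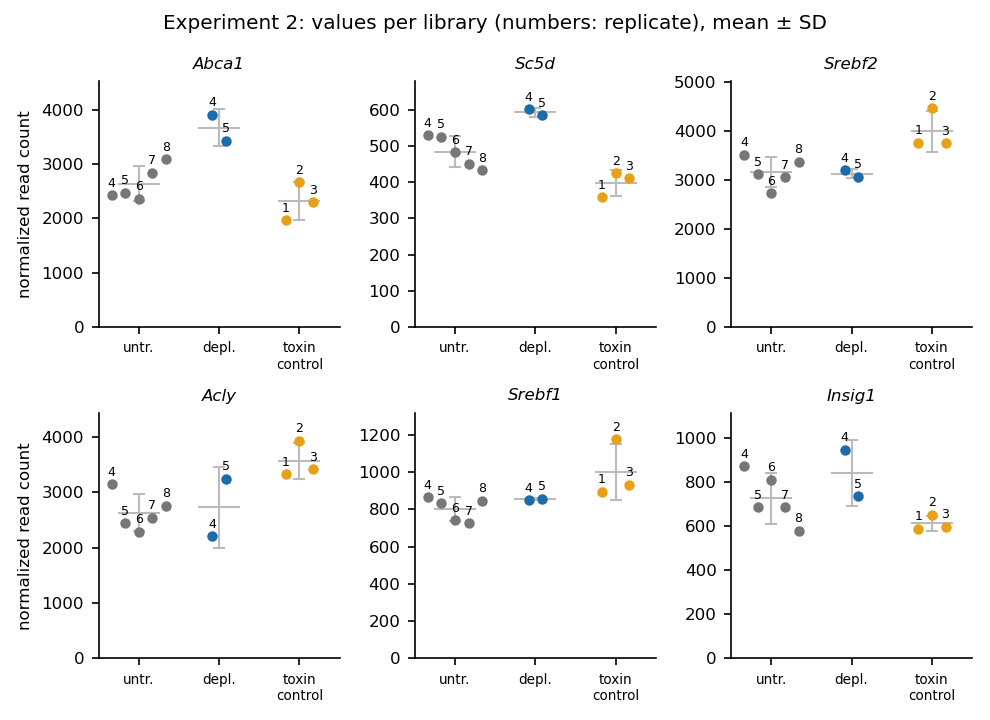
Normalized read counts (y axis, from 0) of 6 genes in experiment 2, with 1 point per library numbered by replicate and bars at the mean ± SD for untreated (n = 5), depleted (n = 2) and toxin control (n = 3) mice (x axis). Abca1 and Sc5d are highest in the 2 depleted libraries, and Srebf2 and Acly in the 3 of the toxin control.

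Of 45 tested genes in the lists around the 36, 6 differed between the toxin control and untreated mice (13.3%, against 15.7% of all genes). Scd1, a fatty acid desaturase, rose (0.38 ± 0.12, adjusted p = 0.0363), 1 of 10 tested genes of that list. In prenylation and isoprenoid products, the farnesyl transferase subunit Fntb rose (0.56), and Rabggtb (-0.64) and Coq2 (-0.29) fell, of 12. Gramd1a, which carries sterol between membranes, fell (-0.39), 1 of 16 of its list, and Gpr183 fell (-0.64), 1 of 3. Gpr183 was also lower in depleted than in untreated mice (-0.64 ± 0.11, adjusted p = 0.0209), the only gene of these lists that passed in that comparison, and none passed against the toxin control or in experiment 1. The comparisons with untreated mice share those 5 libraries.

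Library by library, the mean log2 level of the 20 SREBP2-driven genes and that of the 3 export genes were each centred on the mean of their table. In culture the libraries kept alone lay at -0.15, -0.27 and -0.31 for synthesis and at 0.40, 0.29 and 0.49 for export. Those with gamma delta T cells lay at 0.34, 0.30 and 0.089 for synthesis and at -0.27, -0.57 and -0.35 for export. The groups were thus separate on both scales. In experiment 1 depleted replicate 1 lay at 0.38 for synthesis and -0.37 for export, highest and lowest of the 6 libraries. Depleted replicates 2 and 3 lay at -0.40 and -0.096 for synthesis and at 0.52 and 0.49 for export, above every untreated library on the export scale. In experiment 2 the 10 libraries lay between -0.16 and 0.19 for synthesis and between -0.20 and 0.17 for export. The depleted libraries lay within the untreated range for synthesis. For export the untreated libraries spanned -0.17 to 0.12. Depleted replicate 5 (0.17) lay above and toxin control replicate 1 (-0.20) below that range, with the remaining libraries within it.

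**Figure D5:**
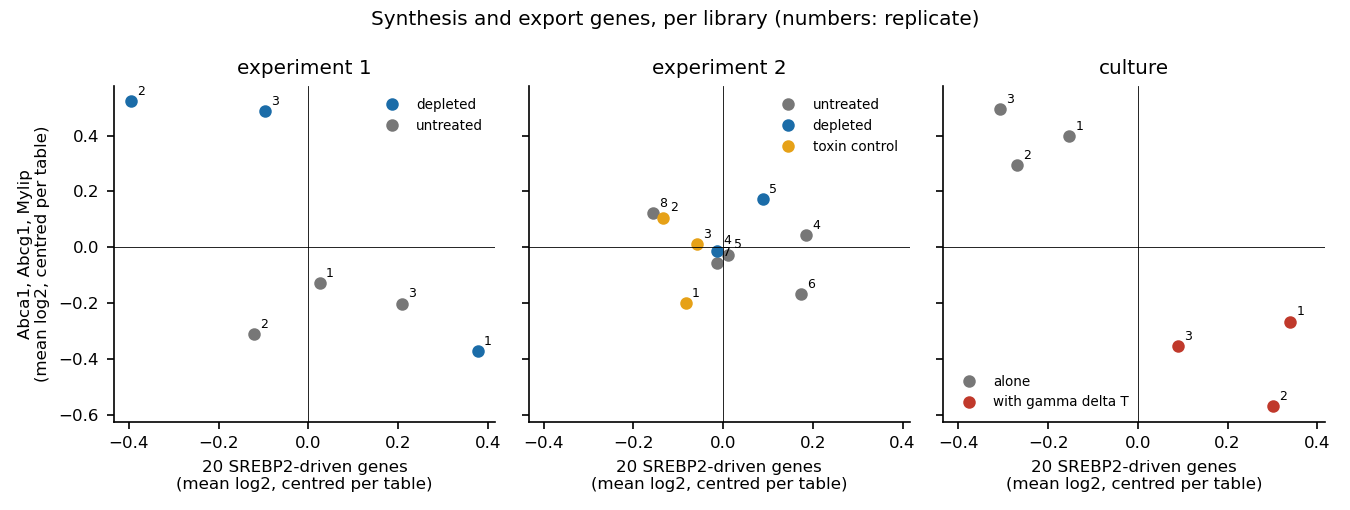
Mean log2(value + 1) of 20 SREBP2-driven genes (x axis) and of Abca1, Abcg1 and Mylip (y axis), centred per table, with 1 point per library numbered by replicate. Cells kept alone and with gamma delta T cells occupy opposite corners in culture, depleted replicate 1 of experiment 1 lies at 0.38 and -0.37, and the libraries of experiment 2 cluster near 0.

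Levels can be compared between genes only per length, here as normalized counts per 1000 bases of GENCODE exon, and only within a table. In untreated mice of experiment 2 the order was led by Lbr (1623), Mylip (1213), Acly (499) and Srebf2 (439), with Abca1 at rank 6 (255) and Hmgcs1 at rank 11 (203). Experiment 1 had the same genes in its first 4 ranks, Mylip leading (542). Cells kept alone in culture were led by Lbr (827), Insig1 (502) and Srebf2 (461), while Abca1 was at rank 33 (26.3) and Abcg1 at rank 36 (16.0). Lss and Tm7sf2 were at ranks 35 and 36 in untreated mice of both experiments. Whether culture itself changed these levels was not tested, since the tables were normalized separately.

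All genes tested were ranked by their Pearson correlation with Hmgcs1 over the 10 libraries of experiment 2, on log2(value + 1). Of the other 35 sterol genes 1, the demethylase Cyp51, was among the 50 highest (0.853), or 2.86% against 0.374% of all genes. This is a description over libraries that share a table and its scaling, and says nothing of shared control.

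Reads of 13 of the 36 genes are uncertain because an exon overlaps that of another GENCODE gene, in 10 cases on the opposite strand, and whether counting used strand is not given in the sources used here. Among genes that passed in culture this touches Idi1, Fdps, Fdft1 and Lss. Fdft1 overlaps the lysosomal protease gene Ctsb, which had a log2 difference of -0.30 there (adjusted p = 0.450), opposite in sign to Fdft1. Cyp51 overlaps Akap9 on the opposite strand, and Akap9 had the same sign in culture (0.65, adjusted p = 0.499). In experiment 2 Akap9 changed against the toxin control (-0.56, adjusted p = 0.0120) and between the toxin control and untreated mice (0.60, adjusted p = 0.00256), where Cyp51 did not pass. Srebf1 overlaps Rai1, which had 0.50 between the toxin control and untreated mice (adjusted p = 0.0595), the sign of Srebf1 there. Sqle, Msmo1, Sc5d, Abca1, Abcg1 and Mylip overlap no other gene in this annotation.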

How the data were processed

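Total RNA of sorted splenic immature B cells was extracted with the RNeasy Plus Micro Kit and, per the labels' protocols, libraries were made with Takara's stranded SMART-Seq kit. The authors deposited 3 tables of normalized counts per gene, a depth-scaled signal that is not raw counts. Per the submitters' processing notes, reads were handled with bcl2fastq and STAR 2.5.2b on mm10. No counter, strand setting, annotation or scaling method was given in the sources used here. Each library's values were whole multiples of what 1 read is worth (100% of values within 0.01), which gave the reads behind them.

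Within each table, genes with a mean of at least 10 were tested with limma 3.58.1 (R 4.3.3, trended variance) on log2(value + 1), with Benjamini-Hochberg adjustment over all genes tested and a threshold of 0.05. All differences are on that scale, which understates low genes. The 3 groups of experiment 2 shared 1 fit, because 1 group had 2 libraries. Medians over gene lists carry no test. Tables were scaled separately and were not compared by level. Alternatives were pseudocounts of 0.5 and 5, a mean above 0 or of at least 50, quantile and TMM scaling, edgeR 4.0.16 and DESeq2 1.42.0 on recovered reads, a replicate block, 2 groups only, and leaving out each library. The fits were also tested on simulated data.

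Per-library values are given for Hmgcs1, Idi1, Sqle, Insig1, Srebf1, Srebf2, Abca1, Abcg1 and Mylip, for each gene that passed, and for the 3 with the smallest p in each comparison, with others by range and count. The members and lists were chosen with earlier results of these data known. Gene positions come from GENCODE M21 and upstream windows from RefSeq, both on GRCm38, the same build as mm10. No 2 libraries of a group agreed within sampling noise.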

Additional observations from a re-analysis of the deposited data

Results flagged for a closer look

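Among the untreated libraries of experiment 2, 1 library stood far from the other 4 in 2 of 36 genes, where chance gives about 1 in 20. Pmvk, the phosphomevalonate kinase, was lowest in replicate 8, at 179 normalized counts. Soat1, which esterifies cholesterol, was highest in replicate 6, at 2161.

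In 5 of the 36 genes every depleted library lay on one side of the untreated mean in experiment 1 and on the opposite side in experiment 2, and the difference between the experiments was not tested. Tm7sf2 had a log2 difference of 0.31 in experiment 1 and -0.61 in experiment 2. In experiment 1 it had the lowest mean of the 36 genes, and untreated replicate 2 was its lowest library. Insig2 had 0.20 and -0.096, and Lbr had 0.061 and -0.024. Nr1h2 had -0.19 and 0.091, and Npc2 had -0.11 and 0.081. None of these 10 differences passed the test in limma. Another 3 genes lay on the same side in both experiments, and 28 were mixed. These counts have no background, because the same sorting was not made over all genes tested. Whether they exceed chance is therefore not known.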

How the results depend on the processing

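No called gene changed sign under any alternative run; with quantile scaling the SREBP2-driven median less the export median went from 0.10 to -0.013 for depleted mice against the toxin control. In experiment 1, between 0 and 5 of the 36 genes passed with 1 library left out, 5 only without depleted replicate 1. For depleted against untreated mice in experiment 2, DESeq2 called 1 of the 36 genes and 137 of all 13364. Against the toxin control, 1 gene passed with 2 groups in the fit and between 0 and 6 with 1 library left out, and the median of the SREBP2-driven genes ranged from 0.00013 to 0.238. For the toxin control against untreated mice the count ranged from 0 to 7, and in culture from 2 to 16. Leaving out 1 depleted library of experiment 2 left a single library, assumed to vary like the other groups. The causes were not tested.

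With the replicate number as a block, 0 of the 36 genes passed in experiment 1, 0 in experiment 2 (depleted against untreated) and 14 in culture. Of all genes tested, 0 of 11701, 153 of 13337 and 448 of 12386 passed in these fits, in the same order. The replicate numbers were not shown to pair libraries. Same-numbered deviations correlated at -0.022, -0.037 and 0.046 in experiment 1, and at -0.070 and -0.11 in experiment 2. In culture they correlated at 0.20, -0.037 and 0.23, where replicate 2 did not correlate best with its own number. Over all alternatives, 215 counts and medians were labelled unchanged. For counts this meant equal or within 1.5 times, and for medians a shift below the larger SD of the 2 groups, whatever the sign. Another 2 medians moved beyond that spread, 6 counts were larger and 11 smaller by over 1.5 times or across 0. Single genes kept their status, called or not called, in 787 values, with 25 crossing the threshold upward and 44 downward. Uncalled genes that turned their sign were among the 787. Low members of experiment 1, such as Mvd and Idi1, rest on few reads.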
